A study of Mus musculus with 23 samples.

Results

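MHC class II antigen presentation was followed through 7 genes, H2-Aa, H2-Ab1, H2-Eb1, Cd74, H2-DMa, H2-DMb1 and Ciita, found by symbol among the 32285 genes of the deposited gene list. All 7 had UMIs, that is, counted RNA molecules, from 2227 UMIs for Ciita to 151356 for Cd74 over all barcodes. MHC class II molecules are heterodimers of an alpha and a beta chain that show peptides of ingested protein to CD4+ T cells. Their chains are loaded in endosomes, where the invariant chain first fills the peptide groove and a second, non-classical class II molecule then exchanges its remnant for peptide. In the healthy brain the pathway is known from dendritic cells, B cells and the macrophages of the meninges, perivascular spaces and choroid plexus, and resting microglia are known to carry little of it.

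H2-Aa and H2-Ab1 encode the alpha and beta chains of the class II molecule I-A, and H2-Eb1 encodes the beta chain of I-E. Cd74 encodes the invariant chain, which guides the chains to endosomes. H2-DMa and H2-DMb1 encode the subunits of H2-M, the peptide exchange factor, and Ciita encodes the coactivator that switches on transcription of the other 6. In GRCm38 with the GENCODE annotation, H2-Aa (ENSMUSG00000036594) lies on the minus strand of chromosome 17 from 34282744 to 34287823. On the plus strand of chromosome 17 lie H2-Ab1 (ENSMUSG00000073421, 34257689 to 34269419), H2-Eb1 (ENSMUSG00000060586, 34305867 to 34316674), H2-DMa (ENSMUSG00000037649, 34119541 to 34139101) and H2-DMb1 (ENSMUSG00000079547, 34153072 to 34160230). Cd74 (ENSMUSG00000024610) is on chromosome 18 and Ciita (ENSMUSG00000022504) is on chromosome 16 from 10480059 to 10528418. H2-DMb1 has a near-identical neighbour, H2-DMb2, so how their reads were divided is uncertain.

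The series asked which brain cells take up 2 antibody transport vehicles (ATVs), antibodies that bind a receptor of the brain capillary wall and are carried across it. ATV-TfR binds the transferrin receptor and was given to TfR mu/hu KI mice, in which the receptor gene is a mouse/human knock-in; ATV-CD98hc, called monovalent in the labels, binds CD98hc and was given to CD98hc mu/hu KI mice; and control IgG was given to C57BL/6 mice. All 3 antibodies carried the dye AF647 and the LALAPG Fc variant, which weakens binding to Fc gamma receptors, and were given once intravenously at 45 mg/kg to mice labelled 3.3 months old. Brains without olfactory bulbs, cerebellum, pons and medulla were taken 24 hours later. Actinomycin D and anisomycin, which block transcription and translation, were present during dissociation. Flow sorting of the live cells gave 4 bins by AF647 brightness, named negative, low, medium and high. The gates came from the tertiles of the positive cells of ATV-TfR mice, where about 30% of cells were positive, against 20% for ATV-CD98hc and 1% for control IgG. Each library is 1 bin of a pool of 1 male and 1 female mouse, with 2 pools per treatment. There were 23 libraries in 12 groups, 11 with 2 libraries, and the control IgG negative bin had 1 library, of replicate 2. Treatment and genotype coincide and cannot be told apart.

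The promoter sequences of 3 members are shown because the conserved class II promoter boxes, which the factors that recruit Ciita bind, are known from class II genes, and a search by letters found both cores in H2-Eb1 and H2-DMb1 and 1 of them in H2-Aa. Sequences are from RefSeq on GRCm38.p6, the 130 bases before the transcription start, and capitals mark the X box core (AACNGATG) and the Y box core (TGATTGG, an inverted CCAAT box).
H2-Aa: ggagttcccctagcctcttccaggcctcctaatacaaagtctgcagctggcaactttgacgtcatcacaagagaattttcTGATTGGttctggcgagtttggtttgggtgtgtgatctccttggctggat
H2-Eb1: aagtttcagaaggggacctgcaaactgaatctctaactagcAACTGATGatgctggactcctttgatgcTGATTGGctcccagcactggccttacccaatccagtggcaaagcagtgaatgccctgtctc
H2-DMb1: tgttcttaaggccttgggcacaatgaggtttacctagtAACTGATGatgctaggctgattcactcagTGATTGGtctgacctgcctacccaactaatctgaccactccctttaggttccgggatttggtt
The windows are chr17:34287824-34287953 on the minus strand for H2-Aa, chr17:34305737-34305866 on the plus strand for H2-Eb1 and chr17:34153061-34153190 on the plus strand for H2-DMb1.

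The letters were searched on both strands from 250 bases before to 50 bases after the start. The Y box core began 50 bases before the start in H2-Aa, 61 in H2-Eb1 and 63 in H2-DMb1, in each on the strand of the gene. The X box core of H2-Eb1 began 89 bases and that of H2-DMb1 92 bases before the start, with 20 and 21 bases between both cores, and no X box core with these letters was in the H2-Aa window. Of all 32851 promoters in the table, 7.82% held the Y box core and 2.32% the X box core. The Y box core was also in the window of the 4 other class II genes searched, H2-DMb2, H2-Oa, H2-Ob and H2-Eb2, and the X box core in that of H2-DMb2 and H2-Eb2 but not of H2-Oa or H2-Ob. Both RefSeq starts of H2-DMa held neither, and H2-Ab1, Cd74 and Ciita are named only. The letters were chosen after these promoters had been looked at, and a match is a run of letters, not a measured site.

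After filtering, 235249 cells were kept, from 518 to 19396 per library, with a median of 2177.5 to 4963 UMIs per cell, and clustering without any MHC class II gene gave 17 classes named by marker lists. The members were described in these classes as CPM, counts per 1000000 UMIs, of UMIs summed over the cells of a class. Of the kept cells, 15267 carried a barcode found in more than 1 library, 197 of them in the border macrophage-like class. The p-values of the fits across genes rest on the spread between libraries of the same treatment and bin, each of a pool of 1 male and 1 female mouse. This spread is shared over all groups of a class, so it is not that of the compared groups alone. The main fit also leaves out that the bins of a pool hold cells of the same mice.

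All 3 chain genes had their highest level in dendritic cell-like cells, followed by border macrophage-like, B cell-like and monocyte-like cells, and were near the limit of detection in endothelial-like and astrocyte-like cells. H2-Aa reached 6938 CPM ± 1117 (SD, n = 5 pools) in dendritic cell-like cells and 4717 ± 1143 (n = 6) in border macrophage-like cells. It reached 1101 ± 355 (n = 6) in B cell-like and 770 ± 351 (n = 6) in monocyte-like cells, 2 classes whose ranges overlapped. In microglia-like cells H2-Aa was at 9.99 CPM ± 6.45 (n = 6), in endothelial-like cells at 0.645 and in astrocyte-like cells at 0.306. H2-Ab1 followed the same order, with 9739 CPM ± 1810 (n = 5) in dendritic cell-like, 4728 ± 1190 in border macrophage-like, 1293 ± 366 in B cell-like and 1003 ± 560 in monocyte-like cells (n = 6 each). H2-Eb1 stood at 8100 ± 1638 (n = 5), 5503 ± 1586, 1291 ± 391 and 704 ± 414 CPM in these 4 classes. Dendritic cell-like and border macrophage-like pools overlapped for H2-Aa and H2-Eb1 and did not for H2-Ab1, while border macrophage-like pools were above all B cell-like pools for the 3 genes. The plasmacytoid dendritic cell-like class, with 1 pool of enough cells, held 235 CPM of H2-Aa and 85.6 CPM of H2-Eb1. All levels by class are descriptions with no test, since the classes rest on genes that vary with the members.

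Cd74 had the highest level in the same classes but came closer between B cell-like and border macrophage-like cells. It stood at 24200 CPM ± 5867 (n = 5) in dendritic cell-like, 12410 ± 3781 in border macrophage-like, 9754 ± 2204 in B cell-like and 3541 ± 1708 in monocyte-like cells (n = 6 each). Border macrophage-like and B cell-like pools overlapped for Cd74, which they did not do for H2-Aa.

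The H2-M genes had a wider distribution, since they were also found in microglia-like cells. H2-DMa was at 1037 CPM ± 105 (n = 5) in dendritic cell-like and 496 ± 110 in border macrophage-like cells. It was at 260 ± 99.8 in microglia-like, 256 ± 88.4 in monocyte-like and 214 ± 44.9 in B cell-like cells (n = 6 each), and the ranges of these neighbours overlapped. H2-DMb1 was at 917 ± 173 (n = 5), 468 ± 151, 242 ± 137 and 113 ± 18.8 CPM in dendritic cell-like, border macrophage-like, monocyte-like and microglia-like cells, and at 69.1 ± 18.3 in B cell-like cells. In choroid plexus epithelial-like cells H2-DMb1 was at 14.7 CPM ± 2.78 (n = 6) and found in 11.0% of cells at a median of 7896.5 UMIs, while the other 6 members had means of at most 4.07 CPM there. Fibroblast-like and ependymal-like cells had 13.1 ± 5.32 and 11.6 ± 4.90 CPM of H2-DMb1 (n = 6 each), with pools that overlapped these. H2-DMb1 was found in 0.0822% of astrocyte-like cells at a median of 3988 UMIs. H2-DMa was at 15.6 CPM ± 1.21 (n = 5) in astrocyte-like cells, with a UMI in 6.29% of them, while 42.0% of microglia-like cells had one at a median of 2869 UMIs.

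Ciita was highest in the 4 classes with the most chain RNA. Its mean was 430.6 CPM ± 74.9 (n = 5) in dendritic cell-like, 119 ± 15.8 in border macrophage-like, 82.9 ± 24.6 in B cell-like and 76.0 ± 66.3 in monocyte-like cells (n = 6 each). Every other class had a mean over pools of at most 3.65 CPM, and microglia-like cells had 0.629 CPM ± 0.674 (n = 6). The plasmacytoid dendritic cell-like class had 0 CPM in its 1 pool of enough cells and 12.8 CPM over all 60 cells, from 3 UMIs. A Ciita UMI was found in 75.0% of dendritic cell-like and 20.5% of border macrophage-like cells, against 0.179% of microglia-like and 0.326% of astrocyte-like cells.

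**Figure D1:**
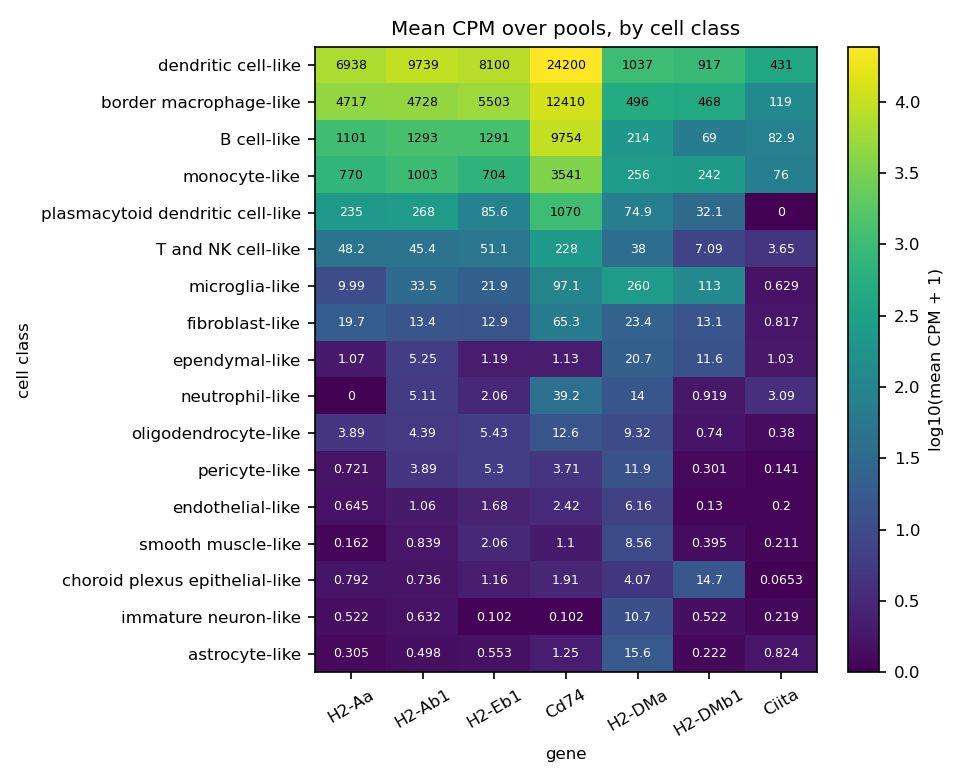
Heatmap of the mean CPM over pools of each member by class, coloured on a log scale. The chain genes, Cd74 and Ciita are high in dendritic cell-like, border macrophage-like, B cell-like and monocyte-like cells, and H2-DMa and H2-DMb1 are also present in microglia-like cells.

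Over the 91 sums of a class and pool, each of at least 20 cells, the chain genes had a Pearson's r of 0.980 to 0.984 with each other on the log2(CPM + 1) scale, and of 0.966 to 0.970 with Cd74. Ciita had an r of 0.931 to 0.940 with the chain genes, H2-DMa with H2-DMb1 one of 0.850, and H2-DMb1 with Ciita the lowest, 0.793. Sums of a pool share libraries and depth, so these values only describe the pattern. Outside the 7 genes, the patterns most like the mean of the chain genes and Cd74 were those of Rnase6 (r = 0.896), Scimp (0.884), Kmo (0.881), Pld4 (0.866), Cd36 (0.860), BC035044 (0.859), Kynu (0.859) and Fcgr2b (0.857). H2-DMa was most alike to Irf8 (0.909), Pld4 (0.899) and Cd86 (0.899), H2-DMb1 to Pld4 (0.874), Ly86 (0.851) and Irf8 (0.845), and Ciita to Cd36 (0.884), Slamf7 (0.870) and Kmo (0.863).

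Other genes of the pathway had other leading classes. H2-DMb2 was highest in B cell-like cells with 246.2 CPM and stood at 4.63 CPM in the border macrophage-like class, the reverse of its neighbour H2-DMb1. H2-Ob and H2-Oa, the subunits of the inhibitor of H2-M, were highest in B cell-like (251.3 CPM) and dendritic cell-like cells (137.1 CPM). Of the 4 lysosomal proteases on the list, Ctss and Lgmn were highest in microglia-like cells, with 4701 and 2508 CPM against 2552 and 812.8 CPM in border macrophage-like cells. Ctsb was highest in border macrophage-like cells (1738 against 1408 CPM in microglia-like cells) and Ctsl in fibroblast-like cells (1465 CPM).

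The border macrophage-like class held 3025 cells that differed widely in class II RNA, and the members were also looked at in its sub-clusters. A UMI of all 3 chain genes was found in 52.7% of its cells, and none of the 3 in 35.6%. Of the 1800 cells with an H2-Aa UMI, 92.2% also had one of H2-Ab1, against 9.06% of the others. Of the 621 cells with a Ciita UMI, 96.9% had H2-Aa, against 49.8% of the others, and cells with H2-DMa had H2-DMb1 in 64.0% against 19.7%. A cell's depth enters both sides of these shares.

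Sub-cluster 0, with 711 cells and 472 CPM of Ccr2, a chemokine receptor of monocytes and their progeny, had the highest mean of the 3 chain genes, and sub-cluster 6 had little class II RNA. For naming, sub-cluster 0 reached only 1 of 5 markers of dendritic cells type 2 and 1 of 6 of monocytes, and Ccr2 is on both lists. Sub-cluster 6 held 813 cells with 412 CPM of Lyve1, 4143 CPM of the mannose receptor Mrc1 and 639 CPM of the haemoglobin scavenger receptor Cd163. H2-Aa was at 8754 CPM ± 601 (SD, n = 6 pools) in sub-cluster 0, at 3725 ± 361 (n = 6) in sub-cluster 1 of 944 cells and at 332.5 ± 141 (n = 6) in sub-cluster 6. The ranges of these 3 over pools did not overlap, for any of the chain genes or Cd74. Cd74 was at 22930 ± 3407, 6233 ± 704 and 852 ± 382 CPM in them. H2-DMa was at 892 ± 62.4, 384 ± 85.8 and 123 ± 40.9 CPM.

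Ciita differed less than the chain genes between sub-clusters 0 and 1, with 197 CPM ± 40.0 and 166 ± 30.5 (n = 6 each) and overlapping pools, and stood at 14.9 ± 8.89 in sub-cluster 6. Sub-cluster 9, 346 cells with 72060 CPM of Apoe and 1742 CPM of Ms4a7, had 6652 CPM ± 2380 of H2-Aa and 24800 ± 9606 of Cd74 (n = 3), the highest mean of Cd74, with pools that overlapped those of sub-cluster 0 for Cd74. Its best list was that of microglia with 2 of 10 markers. Of the border macrophage markers, Ms4a7 (1742 CPM), Stab1 (340.8) and Dab2 (166.5) were highest in it. Mrc1 stood at 52.4 and Pf4 at 37.55 CPM, and Cd163, Lyve1, F13a1, Cbr2 and Folr2 at 0 to 2.83 CPM. Sub-cluster 14, with 133 cells of control IgG replicate 2 alone, had 11.5 CPM of H2-Aa. Sub-clusters 1, 6 and 12, with 1813 cells, reached the border macrophage marker list by themselves, while sub-clusters 0, 9, 14 and 15, with 1212 cells, reached no list and belong to the class only through the cluster they came from.

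**Figure D2:**
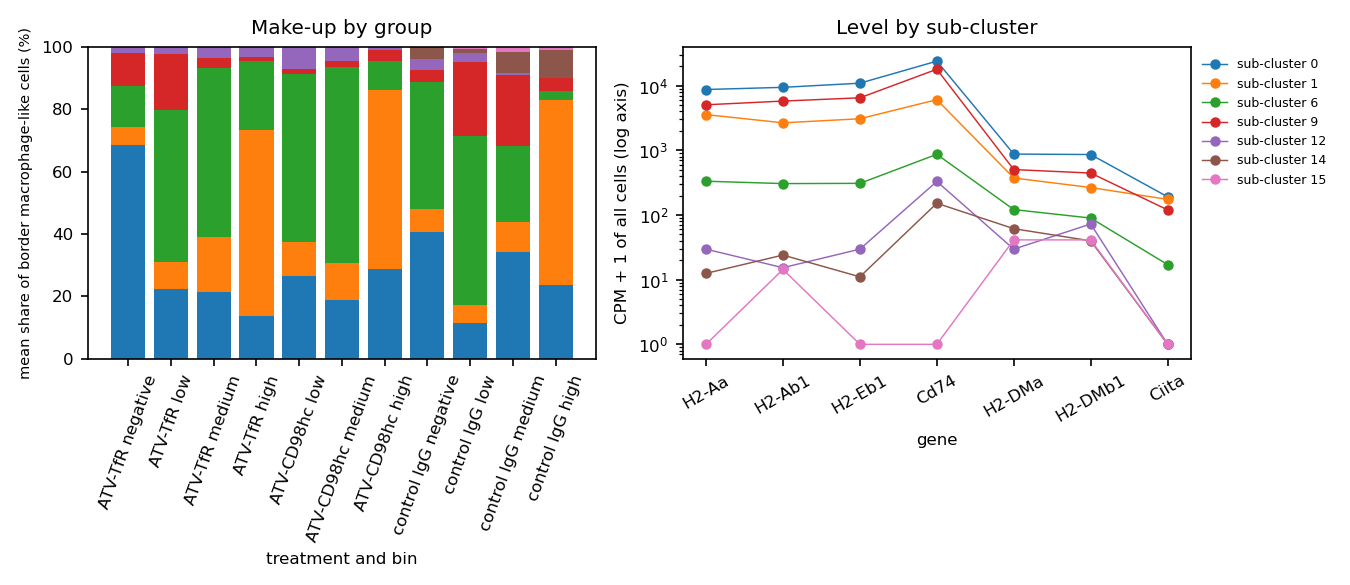
Mean share of each sub-cluster in the border macrophage-like class by treatment and bin (left), and level of the members by sub-cluster, as CPM of all its cells on a log axis (right). Of the 3 large sub-clusters, 0 has the most chain and Cd74 RNA and 6 the least.

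Within the border macrophage-like class, all 7 members were lower in the high than in the negative bin of ATV-TfR. H2-Aa was at 8399 and 9637 CPM in the negative libraries of replicates 1 and 2, at 5331 and 4380 in the low, 4633 and 3947 in the medium and 2793 and 4543 in the high libraries. The 2 negative libraries were above all 6 positive ones, and the positive bins overlapped each other. The fitted difference for H2-Aa between high and negative was a log2 fold change of -1.55 (SE 0.37, edgeR adjusted p = 0.0142), which is 2.92-fold lower.

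H2-Ab1 was at 8771 and 8933 CPM in the negative, 4719 and 4171 in the low, 4701 and 3962 in the medium and 2132 and 4331 in the high libraries. H2-Eb1 was at 10270 and 11000 CPM in the negative and 2403 and 5045 in the high libraries. As for H2-Aa, no positive library of either gene reached the negative ones, and replicate 1 was the lower in the high bin. Their log2 fold changes of high against negative were -1.70 (SE 0.41, edgeR adjusted p = 0.0131) and -1.76 (SE 0.44, edgeR adjusted p = 0.0187).

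Cd74 was at 24810 and 23410 CPM in the negative, 14380 and 11730 in the low, 11670 and 9886 in the medium and 5504 and 11350 in the high libraries. Its log2 fold change was -1.76 (SE 0.45, edgeR adjusted p = 0.0202), from 8433 UMIs in the negative and 2696 in the high libraries. H2-DMa was at 966.8 and 953.1 CPM in the negative and 354.3 and 456.9 in the high libraries, with a log2 fold change of -1.50 (SE 0.36, edgeR adjusted p = 0.0141). The other subunit gene, H2-DMb1, was at 1078 and 945.5 against 248.0 and 476.2 CPM, with -1.74 (SE 0.48, edgeR adjusted p = 0.0340). Ciita was at 181.3 and 166.4 CPM in the negative and 53.2 and 90.1 in the high libraries, from 61 and 23 UMIs, with -1.55 (SE 0.45, edgeR adjusted p = 0.0472).

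So 7 of 7 members fell between these bins, where 4.9% of the 7038 genes tested were called and 2.91% were lower. The members' median was -1.70, against 0.03 for all genes tested. Of the other 28 pathway genes 18 were tested, with 1 higher, 2 lower and a median of 0.19. The co-stimulatory ligand Cd86 rose by 1.77 (SE 0.35, edgeR adjusted p = 0.0021), and the protease Ctss fell by 1.00 (adjusted p = 0.0132) and the thiol reductase Ifi30 by 1.29 (adjusted p = 0.0395). Of 12 class I genes, 1 was called, the class I coactivator Nlrc5 with 1.55 (edgeR adjusted p = 0.0339), and their median was -0.13.

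The make-up of the class moved with this difference. Sub-cluster 0 made up 68.4% ± 5.8 of the class in the negative bin and 13.5% ± 10.7 in the high bin (SD, n = 2 libraries), and sub-cluster 1 made up 6.07% ± 1.5 and 59.9% ± 1.1. Within sub-cluster 0, H2-Aa was at 8995 and 10670 CPM in the negative and at 8445 and 8659 CPM in the high libraries, which held only 5 and 15 of its cells, too few for a test. Cd74 in sub-cluster 0 was at 26170 and 25780 against 15750 and 23500 CPM. The sub-clusters that reach the border macrophage list held 12 and 8 cells in the negative libraries, also too few for a test. In them H2-Aa was at 2050 and 0 CPM in the negative and at 2107 and 2388 CPM in the high libraries of replicates 1 and 2, and Cd74 at 4874 and 682 against 3690 and 3854 CPM. The 2 pools went opposite ways there for Cd74, and at these cell numbers no direction was read. The median depth of the class was 3763.5 and 3127.5 UMIs per cell in the negative and 1567 and 1785 in the high libraries.

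Markers of other cells moved as well, and their part in the result was not tested. The summed level of the endothelial markers in the class was 15.1 to 32.5 CPM in the negative bin, with 7 of 12 detected, and 438 to 585 CPM with 12 of 12 detected in the high bin. The monocyte markers summed to 665 to 749 CPM (3 of 6 detected) in the negative and 0 to 238 CPM (2 of 6) in the high bin, and the border macrophage markers to 2891 to 3699 and 7806 to 11190 CPM (10 of 10 in both). Microglia markers summed to 3286 to 3404 and 3685 to 3726 CPM, and T cell and NK cell markers were all at 0. Markers of dendritic cells type 2 summed to 702 to 787 CPM in the negative and 207 to 393 CPM in the high bin (5 of 5 in both). Ccr2 is on this list and on that of monocytes, so both sums share it. Oligodendrocyte markers went from 237 to 363 CPM (8 of 8) to 70.9 to 90.1 CPM (4 of 8), and astrocyte markers from 112 to 129 CPM (8 of 10) to 38.6 to 82.7 CPM (7 of 10).

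The calls rest on both pools. Without replicate 1 or without replicate 2 of ATV-TfR, 0 members were called (0% and 1.97% of genes called), with Cd74 at -1.27 and -2.46, and with at least 50 cells per library, which leaves 1 negative library, 0 were called. Medium against negative, H2-DMa was called (log2 fold change -1.50, edgeR adjusted p = 0.0159, where 3.27% of genes were called), and the other 6 had -0.89 to -1.64 with adjusted p of 0.0505 to 0.302. Cd86 rose there by 1.27 (edgeR adjusted p = 0.0457). Low against negative, the members had -0.97 to -1.30 and edgeR called 0, where 1.62% of genes were called, with 7 below an unadjusted p of 0.05 and 2 called by DESeq2. With the pool as a replicate block, since all bins of a pool hold cells of the same mice, 6 members fell in the low, 6 in the medium and 7 in the high bin against the negative, where 3.59%, 5.81% and 7.74% of genes were called. Without control IgG replicate 1 or without its replicate 2, 6 members were also called as lower in the low (3.52% and 3.63% of genes called) and 6 in the medium bin (5.7% and 5.84%).

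**Figure D3:**
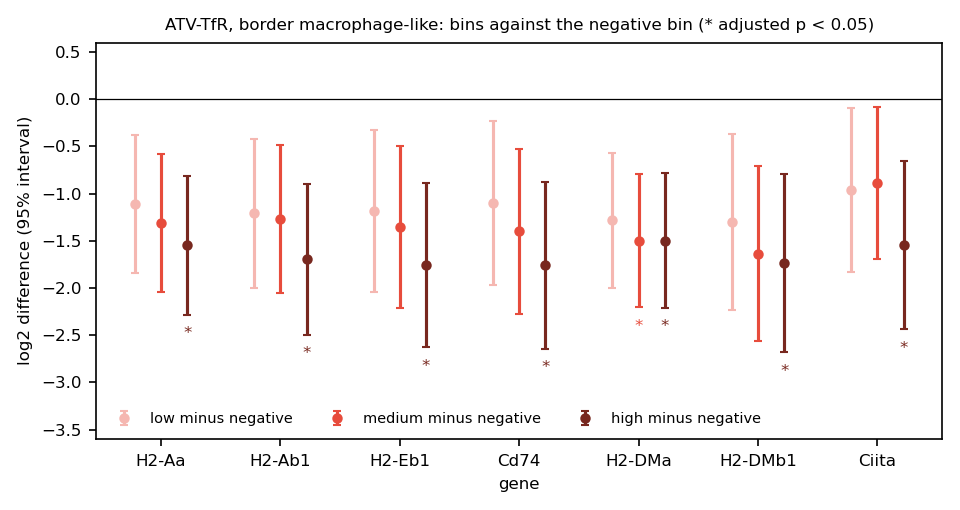
Log2 difference of each member in border macrophage-like cells between the low, medium or high bin and the negative bin of ATV-TfR, with 95% intervals. Asterisks mark an edgeR adjusted p below 0.05. In the high bin 7 members are called (4.9% of all genes), in the medium bin 1 (3.27%) and in the low bin 0 (1.62%).

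In control IgG only replicate 2 had a negative library, with 27 border macrophage-like cells. Within that pool its 3 positive libraries were below the negative one for all members but Ciita, an order that rests on 1 library and was not tested. The share of cells with UMIs of at least 2 chain genes after thinning, given below, went the other way and rose from negative to high in that pool. H2-Aa was at 3930, 7250 and 5998 CPM in the low, medium and high libraries of replicate 1, and at 4704, 2934, 3352 and 2479 CPM in the negative, low, medium and high libraries of replicate 2. Cd74 was at 15650, 23220 and 15520 CPM in replicate 1 and at 12450, 9806, 9813 and 5289 in replicate 2. In each positive bin, replicate 1 was above replicate 2 for both genes. The pools also differed in make-up: sub-cluster 0 was 16.5%, 52.0% and 35.5% of the low, medium and high cells of replicate 1 and 6.33%, 16.5% and 11.9% of those of replicate 2, and sub-cluster 14, with little class II RNA, was 0% of replicate 1 and 2.71%, 13.5% and 17.8% of replicate 2. The libraries of replicate 1 have no negative library of their own mice to be set against. High against low, the members had log2 fold changes of -0.29 to 0.60 and edgeR called 0 (0.924% of genes called), with 0 below an unadjusted p of 0.05. In the sub-clusters that reach the marker list alone, the same contrast called 7 of 7 members as higher, with Cd74 at 2.15 and H2-Ab1 at 2.56 (edgeR, 14.8% of genes called). H2-Aa was there at 546 and 368 CPM in the low and at 3650 and 3216 CPM in the high libraries. The cells differed in sub-cluster, with 287 of sub-cluster 6 and 32 of sub-cluster 1 in the low bin against 26 and 541 in the high bin. High, medium and low against the single negative library gave 0 members called by edgeR, where 0.27%, 0.071% and 0.0142% of genes were called, and 0 below an unadjusted p of 0.05. Since 1 negative library gives no spread of its own, these fits took it from other groups, and their 0 calls decide nothing. The difference of the high-minus-negative contrasts between ATV-TfR and control IgG ranged from -1.11 to -2.44 over the members. It rests on the same single negative library of control IgG, so no test of it is read.

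In ATV-CD98hc the negative libraries held 16 and 8 border macrophage-like cells and entered no test. H2-Aa was at 7934 and 8973 CPM in them, at 3856 and 3794 in the low, 2174 and 3768 in the medium and 4794 and 5466 in the high libraries. Cd74 was at 17740 and 31070, 9756 and 9539, 4529 and 9358, and 9679 and 13780 CPM. The negative libraries, few as their cells were, were above all others for both genes, and the high above the low libraries for H2-Aa. Sub-cluster 0 made up 70.8% of the 24 negative cells, against 26.6%, 18.7% and 27.2% of the low, medium and high cells. High against low, edgeR called 0 members (0.924% of genes called), with log2 fold changes of -0.02 to 1.10 and 1, Ciita, below an unadjusted p of 0.05. High against low in ATV-TfR also gave 0 members (0.156% of genes called), with -0.66 to -0.21 and 0 below an unadjusted p of 0.05. In the sub-clusters that reach the marker list alone, edgeR called 4 members as higher in ATV-CD98hc (6.17% of genes called) and 3 in ATV-TfR (0.969%), where the signs turned for Cd74 (1.05), H2-Aa (1.33) and H2-Ab1 (1.03). Sub-clusters 6 and 1 held 69 and 14 cells in the low and 24 and 157 in the high bin of ATV-CD98hc, and 49 and 9 against 35 and 93 in ATV-TfR.

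**Figure D4:**
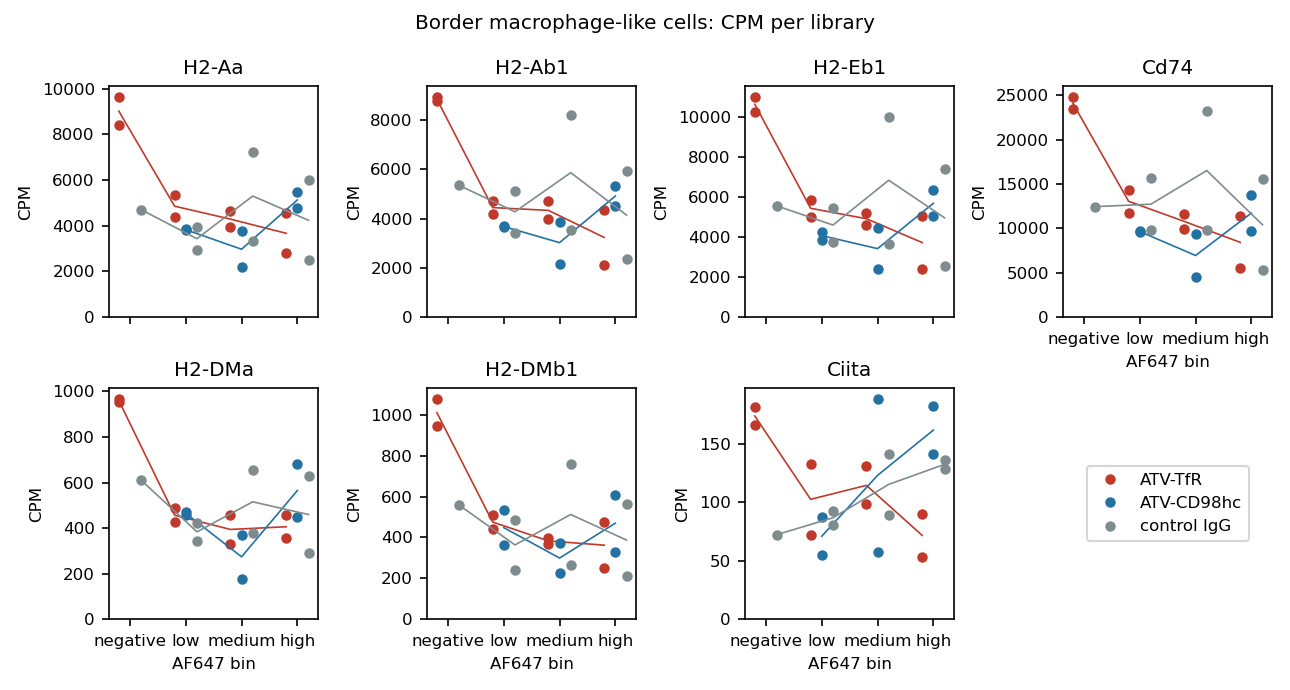
Level of each member in the border macrophage-like class in every library with at least 20 cells of it, as CPM on a linear axis, by treatment and bin. The negative libraries of ATV-TfR are the highest of their treatment, and in the positive bins control IgG replicate 1 is above replicate 2 for every member but Ciita.

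Between treatments within a bin, 10 contrasts of the border macrophage-like class gave 0 member calls by edgeR in 70 tests (0.646% of all gene tests were called), with 11 below an unadjusted p of 0.05. The negative-bin contrast among them rests on the single negative library of control IgG and is not read. The medium bin of ATV-CD98hc against control IgG came nearest, with all 7 members lower in the fit, a median of -1.10 and Cd74 at -1.40 (SE 0.45, edgeR adjusted p = 0.0822), where 3.68% of genes were called. Ctss fell there by 1.12, the co-stimulatory ligand Icosl by 2.18 and the immunoproteasome subunit Psmb8 by 1.20, while the protease Ctsb rose by 0.79 (edgeR adjusted p of 0.0088, 0.0152, 0.0127 and 0.0375). Sub-cluster 6 made up 63.1% ± 2.8 of the class in the former and 24.2% ± 9.7 in the latter (SD, n = 2). Border macrophage markers summed to 12050 to 13080 CPM in the former and 4523 to 6742 CPM in the latter, and endothelial markers to 501 to 578 CPM (12 of 12 detected) and 30.3 to 70.1 CPM (5 of 12). Astrocyte markers summed to 108 to 144 and 5.50 to 12.1 CPM, and choroid plexus epithelial markers to 622 to 2719 and 228 to 268 CPM. The part of these markers in the result was not tested. The same contrast called 6 members as lower with the replicate block (8.2% of genes called) and 6 without control IgG replicate 2 (2.79%). Within sub-clusters, 16 contrasts of 105 tests gave 2 calls (0.345% of all gene tests), both for H2-Eb1 in the medium bin of sub-cluster 6, where 0.318% of genes were called. It was lower by 3.06 (SE 0.71, edgeR adjusted p = 0.0195) in ATV-CD98hc than in control IgG, from 7 and 49 UMIs, and 2.98 higher (SE 0.72, adjusted p = 0.0327) in ATV-TfR than in ATV-CD98hc, from 45 and 7 UMIs. DESeq2 called neither.

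The share of border macrophage-like cells with UMIs of at least 2 chain genes was compared after thinning each cell to 1500 UMIs, which leaves out shallower cells. It was 92.0% and 88.9% in the negative, 56.8% and 42.9% in the low, 48.0% and 51.3% in the medium and 48.9% and 67.4% in the high libraries of ATV-TfR. In control IgG it was 44.6%, 77.5% and 85.8% in the low, medium and high libraries of replicate 1, and 48.2%, 50.4%, 55.0% and 57.8% from negative to high in replicate 2. In ATV-TfR the negative libraries were above the positive ones, among which replicate 2 rose from low to high. The logit slopes per bin were -0.55 in ATV-TfR (exact within-pool permutation p = 0.132, adjusted to 0.165) and 0.45 in control IgG (exact within-pool permutation p = 0.00694, the smallest possible, adjusted to 0.0174; 0.38 and p = 0.0139 with the pool means removed). The slope of ATV-CD98hc over its 3 positive bins was 0.45 (exact within-pool permutation p and adjusted p both 0.389). The adjustment covers 5 slopes, and the difference between treatments was not tested. Over the 3 positive bins alone the slopes were 0.14 in ATV-TfR and 0.55 in control IgG (exact within-pool permutation p of 0.556 and 0.0556, the latter the smallest that 6 libraries allow), so the ATV-TfR slope was below 0 only with the negative bin included. In the sub-clusters that reach the marker list, where the negative libraries have under 20 cells and are also left out, they were 0.95 and 1.48. The control IgG slope was 0.13 without replicate 1 and 1.00 without replicate 2, where the smallest exact permutation p that 1 pool allows is 0.0833 and 0.333. Without the replicate block its adjusted p by exact permutation was 0.131, and with UMIs of all 3 chain genes required it was 0.0579.

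**Figure D5:**
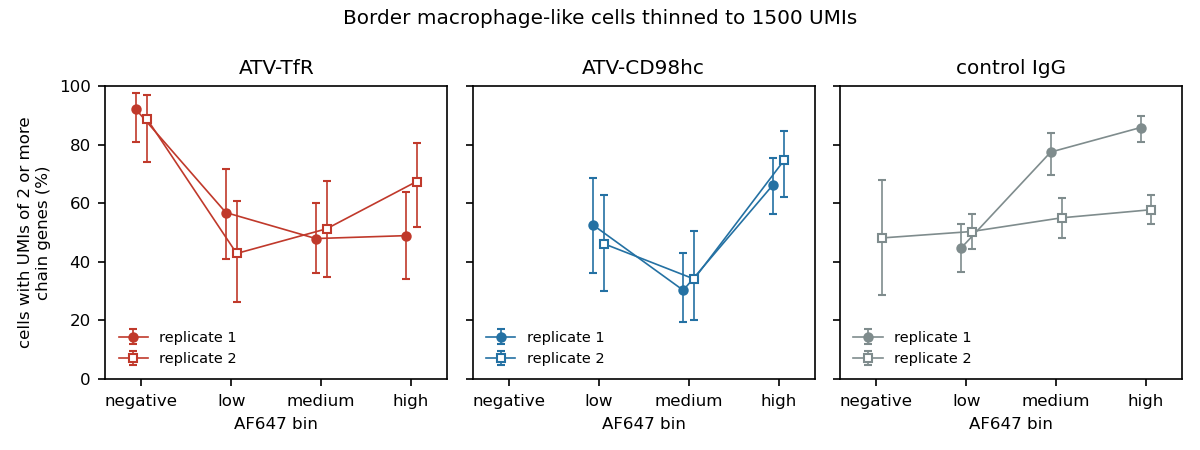
Percent of border macrophage-like cells with UMIs of at least 2 chain genes after thinning to 1500 UMIs, by treatment and bin, with 1 point per library and exact 95% intervals for counting error. The share is highest in the negative bin of ATV-TfR and rises with the bin in both pools of control IgG.

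Microglia-like cells held H2-M RNA and few chain UMIs. Over 19 libraries H2-DMa ran from 137.4 CPM through a median of 229.3 to 482.5, and H2-DMb1 from 36.2 through 98.7 to 159. Neither was called in any contrast of this class, and H2-DMb1 came nearest, high against low in ATV-TfR (log2 fold change -1.22, edgeR adjusted p = 0.0512). Only 0.348% of the 11197 microglia-like cells had UMIs of 2 or more chain genes, and these 39 cells held 80.5% of the chain and 54.2% of the Cd74 UMIs of the class. An H2-Aa UMI was found in 0.438% of microglia-like cells, against 0.160% of endothelial-like cells at a median of 3349 UMIs.

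Low against negative in ATV-CD98hc, microglia-like H2-Aa went from 1 to 159 UMIs and H2-Eb1 from 1 to 200, and H2-Ab1 rose by 1.99 (edgeR adjusted p = 0.0417, where 1.61% of genes were called). In the low library of replicate 1, 3 cells held 457 of the 500 chain UMIs. Without cells with 2 or more chain genes the calls were lost, but that setting removes the cells carrying the tested genes and is no test. Cd74 rose from 25.9 CPM in the negative to 127.8 in the high bin of ATV-CD98hc, by 2.01 (SE 0.59, edgeR adjusted p = 0.0243, where 10.1% of genes were called). The share of microglia-like cells with at least 2 chain genes had slopes of 1.09 for ATV-TfR and 0.71 for ATV-CD98hc (exact permutation adjusted p of 0.0174 and 0.0289). These slopes rest on 0 to 6 such cells per library and on the 0.5 cells added to each side, and no change is read from them.

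In endothelial-like, oligodendrocyte-like and T and NK cell-like cells the values below rest on few UMIs or few cells. Over 172 pairs of a class and a contrast in 12 classes, 17 pairs held 35 member calls, and 6.19% of all gene tests in the 172 pairs were called. Of the 35, 8 were in border macrophage-like cells. Endothelial-like Cd74 was 4.70 lower on the log2 scale in the high than in the negative bin of ATV-TfR (edgeR adjusted p = 0.00041, where 10.1% of genes were called), from 83 and 17 UMIs. H2-Aa, H2-Ab1 and H2-Eb1 were 4.54, 4.54 and 2.95 lower, but 4 cells held 17 of the 23 chain UMIs of the negative bin. The calls were lost without cells of 2 or more chain genes, a setting that removes the cells carrying the tested genes. In the negative bin, endothelial-like Cd74, H2-Aa and H2-Ab1 were 4.63, 4.14 and 3.84 higher in ATV-TfR than in control IgG (edgeR adjusted p of 0.0078, 0.0383 and 0.0241, where 5.05% of genes were called), from 5 to 17 against 3 to 8 UMIs. Control IgG had 1 negative library, so the spread in that contrast came from other groups, and its calls are not read. Against the low bin, the high bin of ATV-TfR had H2-Aa 3.30 lower (edgeR adjusted p = 0.0418, where 11.4% of genes were called), from 28 and 4 UMIs, a call that was lost without either ATV-TfR pool and without cells of 2 or more chain genes. Endothelial-like H2-Ab1 in the medium bin was 4.85 lower in ATV-CD98hc than in control IgG (edgeR adjusted p = 0.0478, where 0.844% of genes were called), from 85 and 6 UMIs. Values in the other 3 endothelial-like contrasts changed sign without 1 pool. Without ATV-TfR replicate 1, Cd74 was at 6.38 for high against negative and at -6.75 in the negative bin against control IgG. Without control IgG replicate 2, H2-Ab1 was at 6.90 in the medium bin. The negative ATV-TfR library then left held 0 Cd74 UMIs in 79 cells, and the medium control IgG library 0 chain UMIs in 27 cells. These signs come from counts of 0, and no direction is read from them. Oligodendrocyte-like Cd74 had 567 UMIs in the negative and 3 in the low bin of ATV-TfR, and 3 cells of negative replicate 2 held 587 of its 595 chain UMIs. The 4 member calls there (10.9% of genes called) were all lost without such cells, whose removal takes out the RNA that is tested. In T and NK cell-like cells, 1 cell held 156 of the 161 Cd74 UMIs.

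H2-DMa, which was spread over more cells, was lower in the high than in the negative bin of ATV-TfR in astrocyte-like and pericyte-like cells. In astrocyte-like cells it stood at 10.2 CPM in the high and 17.5 in the negative bin of ATV-TfR, a log2 fold change of -0.67 (SE 0.22, edgeR adjusted p = 0.0354, where 19.1% of genes were called), while the low bin stood at 17.1 CPM. The protease Ctss, highest in microglia-like cells, had a log2 fold change of -5.36 there and the ubiquitin ligase gene March1 one of -2.94 (edgeR adjusted p of 1.5e-05 and 0.0049). Medium against negative in ATV-CD98hc gave 11.3 against 17.4 CPM, -0.59 (SE 0.16, edgeR adjusted p = 0.0169, where 15.3% of genes were called). In pericyte-like cells H2-DMa stood at 8.39 in the high and 18.5 CPM in the negative bin of ATV-TfR, where it fell by 1.00 (SE 0.29, edgeR adjusted p = 0.0160, where 22.9% of genes were called), and Ctss and March1 had log2 fold changes of -5.14 and -5.03 there (edgeR adjusted p of 3.7e-05 and 2.9e-05). Pericyte-like Cd74 had a log2 fold change of -3.75 for high against negative in ATV-TfR, from 2 and 20 UMIs. In the medium bin it had one of 5.11 for ATV-TfR against ATV-CD98hc, from 35 and 3 UMIs. Unlike H2-DMa, pericyte-like Cd74 was held by few cells: 7 of 6766 cells, those with UMIs of 2 or more chain genes, held 61.1% of the 108 Cd74 UMIs of the class. The part of RNA of other cells in these differences was not tested. In fibroblast-like cells H2-DMb1 rose from 5.70 CPM in the negative to 37.6 in the medium bin of ATV-TfR, by 2.71 (SE 0.74, edgeR adjusted p = 0.0160, where 13.5% of genes were called), from 8 and 36 UMIs. H2-Eb1 rose there by 4.08 (edgeR adjusted p = 0.0332), from 2 and 25 UMIs. In the medium libraries, 7 of 64 and 4 of 68 cells held 58 of 66 and 28 of 30 chain UMIs. The fibroblast-like clusters stood at 27.5 and 2.34 CPM of H2-DMb1, and the part of their make-up or of few cells was not tested.

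Female and male cells of the same pools, told apart by sex-specific genes, gave 0 member calls by edgeR in 31 tests over 7 classes (0.377% of all gene tests were called), with 7 below an unadjusted p of 0.05. In border macrophage-like cells, of which 1222 were called female and 759 male, the log2 fold changes of female against male ranged from -0.13 to 0.33, and 5 of 7 were below an unadjusted p of 0.05.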

How the data were processed

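Single-cell RNA was counted in 23 libraries. The deposited matrix holds raw UMI counts of each gene in each barcode, not normalized. The other deposited files list genes, barcodes and libraries. The submitters' processing notes name Cell Ranger 7.1.0, Seurat 4 and 5, mm10 and GRCm38. Annotation release and cell calling: not given in the sources used here. The members and gene lists were chosen with earlier results of these data known.

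Filters of 500 or more genes, 800 or more UMIs and no more than 10% mitochondrial UMIs kept 249715 of 265025 barcodes, and 14466 scored by Scrublet as doublets were removed, above its threshold or, in 8 libraries where that marked under 0.5% or over 25%, above percentile 94 of the score. The 1129743851 UMIs ranged from 1861238 to 90307818 per library. Clusters came from 2000 variable genes without MHC class II genes, 50 components, 15 neighbours and resolution 1 (scanpy 1.11.5, igraph 0.11.9, leidenalg 0.10.2), without batch integration. A name needed 50% of a marker list. Immune clusters other than microglia were clustered again, and 5484 cells stayed unnamed.

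Counts summed per class and library (at least 20 cells) were tested with edgeR 4.0.16 (quasi-likelihood, TMM, its filter on low counts, limma 3.58.1, R 4.3.3) with 1 mean per treatment and bin. Benjamini-Hochberg adjustment ran over all genes tested in a class and contrast, with a call below 0.05. DESeq2 1.42.0 was an alternative. Contrasts of high against low bins in the ATVs, sub-clusters and differences of contrasts between treatments were added after seeing the data. Shares were tested with exact permutations of bins within a pool (scipy 1.17.1). Intervals of shares are exact binomial 95% intervals. Per the labels, the 4 bins of a pool hold cells of the same mice, which pairs them. Same-numbered libraries had correlations of their deviations from -0.02 to 0.51 in border macrophage-like, 0.047 to 0.93 in endothelial-like and -0.24 to 0.73 in astrocyte-like cells. On simulated data the border macrophage-like contrast of high against negative in ATV-TfR, with 6633 genes, recovered 6.59% of genes changed 2-fold and 58% of those changed 4-fold, with 8.06% false calls. The text names all 7 members, at most 6 called genes per other list and comparison, and the genes most alike in pattern (8 and 3 per member).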

Additional observations from a re-analysis of the deposited data

Results flagged for a closer look

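The 5484 cells left without a class took part in no comparison of the report. H2-DMb1 stood at 17.6 CPM in the unnamed cells of ATV-TfR (198 UMIs in 2334 cells) and at 24.5 CPM in those of ATV-CD98hc (375 UMIs in 2916 cells), above the 11.7 CPM of control IgG (12 UMIs in 234 cells). The other 6 members were not above control IgG in both ATVs there: H2-Aa was at 114.4 and 142.7 CPM in ATV-TfR and ATV-CD98hc against 164.7, and Cd74 at 390.4 and 394.8 against 472.6.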

How the results depend on the processing

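The alternatives on doublets, shared barcodes, sub-clusters of 1 pool, sub-clusters without a marker list and cells with 2 or more chain genes include some chosen after seeing the data, and the cause of each change was not tested. Leaving out cells with 2 or more chain genes removes the RNA that is then tested, so a call lost there is no test. Percentages in parentheses are the share of all genes called in the same setting. In border macrophage-like cells, members called in ATV-TfR went from 7 to 0 for high against negative with at least 50 cells (2.43%). For low against negative (0) they became 2 with DESeq2 (2.16%), 6 without a filter (1.15%), 6 with the replicate block (3.59%) and 3 without sub-clusters of 1 pool (2.09%). For medium against negative (1) they became 2 with DESeq2 (3.3%), with MHC genes in the clustering (3.61%) or with a stricter filter (6.78%), 0 with at least 50 cells (1.82%), 3 without shared barcodes (3.32%), and 6 in female cells (4.91%), without a filter (1.75%), with the replicate block (5.81%) or without sub-clusters of 1 pool (4.24%). With only the sub-clusters that reach the marker list, high against low called 3 for ATV-TfR (0.969%), 4 for ATV-CD98hc (6.17%) and 7 for control IgG (14.8%), while contrasts against the negative bin could not be run in them (under 20 cells per negative library), and the replicate block called 1 in control IgG high (1.97%) and 1 in low against negative (0.512%). Between treatments (0), 5 were called in female cells (0.556%), 7 without a filter (0.701%), 6 with the replicate block (1.68%), 5 without sub-clusters of 1 pool (0.844%) and 6 in named sub-clusters (0.47%). Between sexes 5 were called without a filter (0.865%). Within sub-clusters (2), DESeq2 called 0 (0.144%) and the block 6 (0.62%). In other classes, calls between bins (20, 8.83%) became 63 with doublets kept (10.5%), 6 in male cells (4.44%), 73 without a filter (6.27%) and 54 with the block (12.2%). Those between treatments (7, 3.78%) became 15 with DESeq2 (4.0%), 13 with MHC genes in the clustering (3.74%), 27 with doublets (4.52%), 2 in female cells (2.16%), 43 without a filter (2.99%), 20 with the block (6.04%) and 2 without cells of 2 or more chain genes (3.74%).

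Leaving out 1 pool at a time gave 0 to 7 calls for high (0% to 7.91%), 0 to 6 for medium (0% to 5.84%) and 0 to 6 for low (0% to 3.63%) against negative in ATV-TfR, 0 to 6 between treatments (0.253% to 1.94%), 0 to 5 within sub-clusters (0.235% to 0.405%), and 10 to 29 (5.1% to 9.64%) and 2 to 16 (2.1% to 4.9%) in other classes between bins and treatments. Slopes then ran from -0.75 to -0.35 with ATV-TfR, 0.29 to 0.60 with ATV-CD98hc and 0.13 to 1.00 with control IgG for border macrophage-like, and 0.69 to 1.49 and 0.66 to 0.76 for ATV-TfR and ATV-CD98hc in microglia-like cells. Over positive bins alone the ATV-TfR slope reversed to 0.14, the control IgG slope was 0.55, and those of microglia-like cells were 1.26 in ATV-TfR and 0.84 in ATV-CD98hc, none of these called with a smallest possible p of 0.0556. In named sub-clusters, whose negative libraries also drop out, they were 0.95 and 1.48 for ATV-TfR and control IgG. The control IgG slope was 0.34 for all 3 chains and 0.45 without the replicate block, and neither was called (exact permutation adjusted p of 0.0579 and 0.131). Microglia-like slopes were 0.76 in ATV-TfR and 0.20 in ATV-CD98hc for 1 chain, 0.76 and 0.031 in percent, and 0.71 in ATV-CD98hc without the replicate block.

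In the negative bin alone, border macrophage-like levels (n = 3 pools) were 7580 CPM for H2-Aa, 7683 for H2-Ab1, 8941 for H2-Eb1, 20220 for Cd74, 843.3 for H2-DMa, 860.6 for H2-DMb1 and 140.0 for Ciita. Dendritic cell-like levels, from 1 pool alone, were 8172 for H2-Aa, 9845 for H2-Eb1 and 32660 for Cd74, and choroid plexus epithelial-like H2-DMb1 was at 18.9 (n = 5 pools). Signs reversed in named sub-clusters for high against low in ATV-TfR (Cd74 1.05, H2-Aa 1.33, H2-Ab1 1.03) and control IgG (Cd74 2.15, H2-Ab1 2.56) and for ATV-CD98hc against control IgG in the low bin (H2-Eb1 1.02). In endothelial-like cells they reversed for high against negative in ATV-TfR (Cd74 4.42 in male cells and 6.38 and -5.15 without ATV-TfR replicate 1 or 2; H2-Eb1 7.13 without cells of 2 or more chain genes, 7.04 and -3.50 without ATV-TfR replicate 1 or 2). They also did for ATV-CD98hc against control IgG in the medium bin (H2-Ab1 6.50 without such cells, 6.90 and -5.52 without control IgG replicate 2 or 1) and for ATV-TfR against control IgG in the negative bin (Cd74 -6.34 in male cells, -6.75 and 5.33 without ATV-TfR replicate 1 or 2), and in sub-cluster 6 for ATV-TfR against control IgG in the low bin (H2-Ab1 -8.47 and 1.10 without ATV-TfR replicate 1 or 2). No direction is read from the reversals in endothelial-like cells and sub-cluster 6. Without ATV-TfR replicate 1 the negative endothelial-like library left held 0 Cd74 UMIs. Without control IgG replicate 2 the medium one left held 0 chain UMIs. With 27 to 511 border macrophage-like cells in the libraries tested, small differences may not be detectable at this depth.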
